A study of Homo sapiens with 9 samples.

Results

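The red cell membrane skeleton genes described here are EPB42, EPB41, SPTB, ANK1, SLC4A1, ADD1, ADD2, DMTN and TMOD1, 9 of the 22384 Gencode v44 genes with a read pair in the TIF-Seq2 tables. They were chosen by name. Their read pairs are those whose 5′ and 3′ ends both lay on the strand of the gene and within 1 kb of its annotated body, which gave 11485 of 15358140 read pairs (0.0748%). A gene near another on the same strand can share pairs with it, and 28 pairs of EPB42 and 113 of ANK1 also fell in the window of an unnamed lncRNA.

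K562 is an established erythroleukaemia line that carries the BCR-ABL1 fusion of chronic myeloid leukaemia. The groups were cells of this line kept for 24 h in 1 μM imatinib, which blocks the kinase of the fusion, or in the solvent DMSO, with 2 biological replicates and 2 libraries each. Whether the replicates were separate cultures is known only from that word, and p-values measure the spread between them. TIF-Seq2 joins the ends of each capped and polyadenylated cDNA in a circle before sequencing, so that a read pair holds the transcription start site (TSS) and the poly(A) site of the same RNA. Since the RNA was taken from whole cultures, more cells of a kind and more RNA per cell cannot be told apart.

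The membrane skeleton is a protein lattice under the red cell membrane that gives the cell its shape and elasticity. Spectrin tetramers form its strands. Ankyrin and protein 4.2 tie spectrin to band 3, the anion exchanger in the membrane, and protein 4.1, adducin, dematin and tropomodulin hold the strands to short actin filaments at the nodes. Defects of ankyrin, spectrin, band 3 or protein 4.2 are known causes of hereditary spherocytosis, and the proteins accumulate as erythroid cells mature.

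The libraries held 3695520 and 5135829 read pairs (DMSO replicates 1 and 2) and 4263670 and 2263121 read pairs (imatinib replicates 1 and 2), so that imatinib replicate 2 was the shallowest. Of 12 erythroid marker genes of K562 all 12 passed the filter on low counts and 9 rose after imatinib (edgeR, adjusted p under 0.05). Their summed level was 5710 to 6895 counts per 1000000 (CPM) with DMSO and 18361 to 18634 CPM with imatinib. The part of this shared rise in the values of the 9 genes was not tested. Markers of other blood cells were rare. The summed levels of 6 megakaryocyte, 4 lymphoid and 4 granulocyte and monocyte markers stayed between 0 and 37.0 CPM in each library, and 8 of these 14 genes had no read pair. Of the lymphoid markers, CD3E and MS4A1 were at 0.

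All 9 genes had a higher CPM in both imatinib libraries than in both DMSO libraries, as did 30.8% of the genes tested, and 8 of the 9 rose after imatinib in edgeR (quasi-likelihood test, Benjamini-Hochberg adjusted p under 0.05 over 12135 genes). Over all genes tested, 8.69% were called higher. The median log2 fold change was 2.10 over the 9 genes and 0.03 over all genes tested. The exception was ANK1, which did not pass the test. Without DMSO replicate 2, 4 of the 9 passed, and SPTB, DMTN, EPB41 and ADD1 were lost. EPB42, SLC4A1 and DMTN passed the filter on low counts through the imatinib libraries alone, so a difference was built into their entry. They are among the 8 called and in the median of 2.10, but their calls are no support for a rise. For them no adjusted p is given, and the ratio of pooled read pairs is given with its exact 95% interval. The genes fell into those that were nearly silent with DMSO, with at most 8 read pairs in a DMSO library (SLC4A1, EPB42 and DMTN), and those with at least 37 (the other 6).

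**Figure D1:**
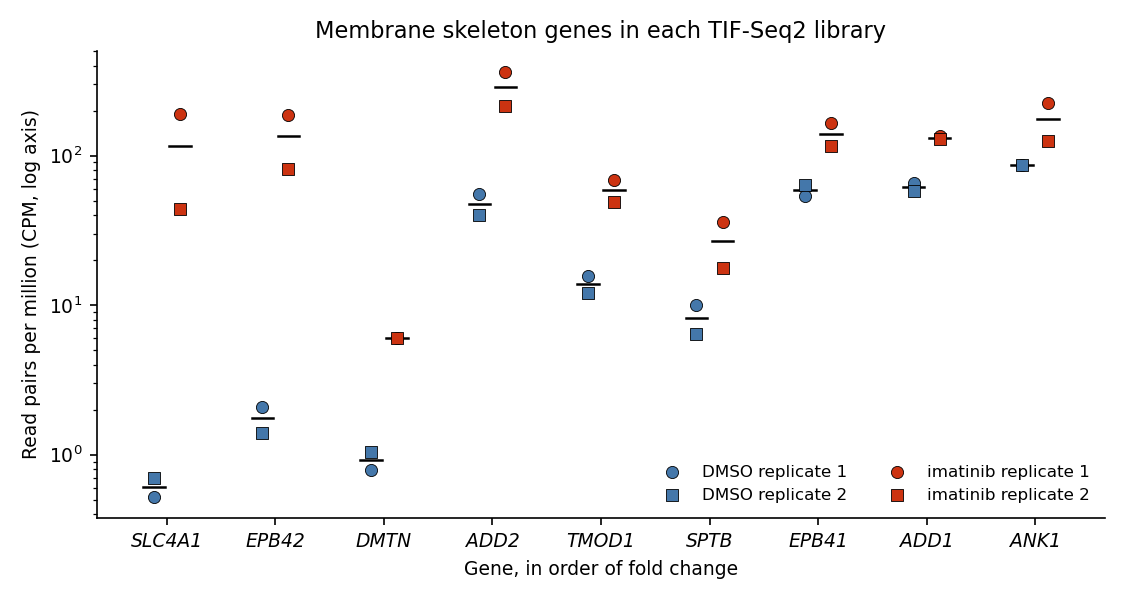
Read pairs per 1000000 (CPM, log axis) of the 9 genes in each of the 4 libraries, with circles for replicate 1, squares for replicate 2, blue for DMSO, red for imatinib and a line at the mean of 2 libraries. Both red points lie above both blue points for all 9 genes, and the gap runs from ANK1 (86.6 to 176 CPM on average) to SLC4A1 (0.611 to 117 CPM).

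SLC4A1 encodes band 3, the anion exchanger that anchors the skeleton in the membrane. It lies on the minus strand of chromosome 17 (hg38, 44248390 to 44268141). It had 2 and 4 read pairs with DMSO and 948 and 109 with imatinib, or 0.52 and 0.70 CPM against 189.7 and 43.9 CPM. Few DMSO molecules were sampled, and the imatinib replicates differed by 4.32 times. The log2 fold change was 7.49 (SE 0.85, edgeR). Pooled over libraries the ratio was 225 (exact 95% interval 103 to 614, counting error only). The log2 fold change was 6.08 without imatinib replicate 1 and 8.15 without imatinib replicate 2.

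EPB42 encodes protein 4.2, which binds band 3 and ankyrin. It lies on the minus strand of chromosome 15 (43197227 to 43221018). It had 8 and 8 read pairs with DMSO and 938 and 201 with imatinib, or 2.10 and 1.40 CPM against 188 and 81.0 CPM. The groups were far apart, with imatinib replicate 1 at 2.32 times replicate 2. The log2 fold change was 6.29 (SE 0.54, edgeR), and the pooled ratio was 90.9 (exact 95% interval 55.7 to 160). Without imatinib replicate 1 the log2 fold change was 5.57.

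ANK1 encodes erythrocyte ankyrin, the adaptor between spectrin and band 3, on the minus strand of chromosome 8 (41653220 to 41896741). Its 330 and 497 read pairs with DMSO (86.5 and 86.7 CPM) stood against 1132 and 313 with imatinib (226 and 126 CPM). The DMSO replicates were almost equal and the imatinib replicates 1.80 times apart. The log2 fold change of 1.03 (SE 0.32) had an adjusted p of 0.0614 in edgeR and of 0.0541 in DESeq2. Without imatinib replicate 1 it was 0.56 (adjusted p = 0.185), and without DMSO replicate 1 or 2 the adjusted p was 0.234 or 0.248. It passed at 0.0391 when 3′ ends in A-rich sequence and pairs under 300 bp were left out, at 0.0496 with pairs of ANK1 alone, at 0.0201 with no filter on low counts and without imatinib replicate 2 at 4.61e-05, with a log2 fold change of 1.36.

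SPTB encodes beta spectrin, which forms the strands of the lattice, on the minus strand of chromosome 14 (64746283 to 64879907). It had 38 and 37 read pairs with DMSO and 181 and 44 with imatinib, or 9.96 and 6.45 CPM against 36.2 and 17.7 CPM. The groups did not overlap, though imatinib replicate 2 was less than 2 times DMSO replicate 1. The log2 fold change was 1.76 (SE 0.42, adjusted p = 0.0262), and without DMSO replicate 2 it was 1.44 with an adjusted p of 0.115. It was 1.15 without imatinib replicate 1 and 2.14 without imatinib replicate 2.

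Of the genes of the actin nodes, ADD2 rose furthest among those that were not nearly silent with DMSO. It encodes beta adducin, the adducin subunit typical of red cells and brain, on the minus strand of chromosome 2 (70607618 to 70768225). Its 210 and 231 read pairs with DMSO (55.1 and 40.3 CPM) became 1812 and 532 with imatinib (363 and 214 CPM). With imatinib ADD2 had the highest mean level of the 9 genes, although its libraries overlapped those of ANK1 next in order. The log2 fold change was 2.61 (SE 0.34, adjusted p = 0.00322).

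ADD1, the widely expressed alpha adducin on chromosome 4 (2843844 to 2930076), had 251 and 334 read pairs with DMSO and 675 and 320 with imatinib. These are 65.8 and 58.3 CPM against 135 and 129 CPM, the most even imatinib pair after DMTN. Its log2 fold change was 1.09 (SE 0.26, adjusted p = 0.0252).

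EPB41 encodes protein 4.1R, which strengthens the contact of spectrin with actin, on chromosome 1 (28887091 to 29120046). It had 206 and 363 read pairs with DMSO and 827 and 286 with imatinib, or 54.0 and 63.3 CPM against 165 and 115 CPM. Its log2 fold change was 1.26 (SE 0.29, adjusted p = 0.0223). The calls of ADD1 and EPB41 held without either imatinib library (adjusted p from 0.00248 to 0.00368 and from 1.97e-05 to 0.00973) but not without a DMSO library. Without DMSO replicate 1 their adjusted p was 0.164 and 0.174, and without DMSO replicate 2 it was 0.275 and 0.0953.

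TMOD1 encodes tropomodulin, which caps the slow-growing end of the actin filament, on chromosome 9 (97501180 to 97601743). It had 60 and 69 read pairs with DMSO and 343 and 122 with imatinib, or 15.7 and 12.04 CPM against 68.6 and 49.2 CPM. Its log2 fold change was 2.10 (SE 0.33, adjusted p = 0.00537).

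DMTN encodes dematin, an actin-bundling protein, on chromosome 8 (22048995 to 22082527). It was the rarest with imatinib, with 3 and 6 read pairs with DMSO and 30 and 15 with imatinib (0.79 and 1.05 CPM against 6.002 and 6.05 CPM). Its log2 fold change was 2.65 (SE 0.50, edgeR), and the pooled ratio was 6.38 (exact 95% interval 3.08 to 14.9). With a library left out the log2 fold change ranged from 2.47 to 2.87.

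The size of the rise differed between the imatinib replicates. In 8 of the 9 genes replicate 1 was above replicate 2, with DMTN the exception at 0.993 times, and the median ratio over all 9 was 1.69. Among all genes called higher, 73.1% were above in replicate 1, and the median ratio over all of them was 1.27. The sequence of levels changed with treatment. With DMSO the mean order was ANK1, ADD1, EPB41, ADD2, TMOD1, SPTB, EPB42, DMTN and SLC4A1, where the libraries of ADD1 overlapped those of EPB41, and EPB41 those of ADD2, and the other neighbours were separate. With imatinib ADD2 came first and SLC4A1 and EPB42 stood among the larger values, and all neighbours overlapped down to TMOD1, below which SPTB and DMTN were each separate from the gene before. Each read pair is 1 molecule whatever its length, so these levels were not divided by length, and how well long cDNA was captured was not tested. By the root mean square difference of centred log2 CPM over the 4 libraries, EPB41 and ANK1 were most alike (0.20), followed by EPB41 with ADD1 (0.23) and ADD2 with TMOD1 (0.26), while SLC4A1 was nearest to EPB42 at 0.71.

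Among 40 other genes of the membrane skeleton, its homologues and its membrane partners, 33 were tested, 10 rose, 2 fell and 21 did not pass. The median log2 fold change of the 33 was 0.32, far below that of the 9 genes, and the lists were drawn up with earlier results of these data known. The Rh antigen genes RHD (3.62, adjusted p = 0.000944) and RHCE (3.52, adjusted p = 0.00183) had log2 fold changes above 3. These 2 genes are nearly identical and reads of either could be split between them. The lipid raft gene FLOT2 rose by 2.12 on the log2 scale and SLC2A1, which encodes the red cell glucose transporter GLUT1, by 1.50 (SE 0.29). The call of SLC2A1 was lost without DMSO replicate 1 (adjusted p = 0.131). The genes that fell were SPTBN1, the widely expressed beta spectrin, from 13.9 and 11.5 CPM to 0.60 and 2.42 CPM (log2 fold change -3.28, SE 0.57, adjusted p = 0.00784, and -2.35 without imatinib replicate 1 or -4.37 without imatinib replicate 2), and the tropomyosin gene TPM4 (-1.97, SE 0.33, adjusted p = 0.00691). SPTB rose while its homologue SPTBN1 fell in the same libraries.

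**Figure D2:**
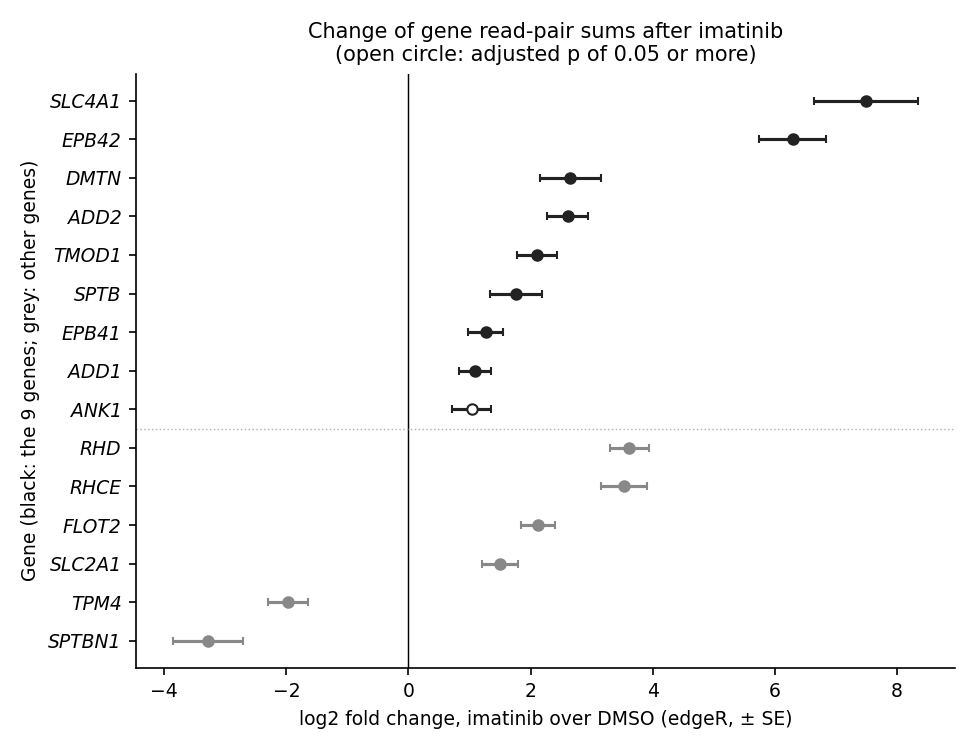
Log2 fold change of gene read-pair sums, imatinib over DMSO, with the SE from edgeR's quasi-likelihood fit, for the 9 genes (black) and 6 called genes of the other list (grey); an open circle marks an adjusted p of 0.05 or more. The 9 genes run from 1.03 (ANK1, open) to 7.49 (SLC4A1), and SPTBN1 (-3.28) and TPM4 (-1.97) lie on the other side of 0. EPB42, SLC4A1 and DMTN entered the test through the imatinib libraries alone.

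Because both ends of a molecule are known, each pair can be placed against the reading frame. Pairs were called full-length when they started at or before the start codon and ended at or past the stop codon of the Ensembl canonical transcript, internal start when they began past the start codon, and early end when they ended before the stop codon. Pairs with 7 or more A in the 10 genomic bases past the 3′ end were left out, as the study's methods take such ends for internal priming. This removed 54.4% of the pairs of ANK1, 30.3% of EPB41 and 20.4% of DMTN, and from 1.39% (ADD1) to 8.33% (SPTB) of the others. Pairs with ends under 300 bp or over 2 Mb apart were left out as well. After both filters 539 of 594 pairs remained for TMOD1, 947 of 1063 for SLC4A1 and 268 of 300 for SPTB. Some of the A-rich pairs of ANK1 and EPB41 ended at or near an annotated end. What part of the A-rich pairs was internal priming was not tested, and the shares below depend on both filters.

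The full-length share differed widely between the genes. It was 92.1% of 1096 pairs for EPB42 (95% Wilson interval 90.3 to 93.5, counting error only) and 80.5% of 41 pairs for DMTN (66.0 to 89.8). ADD2 (57.7% of 2686), TMOD1 (49.2% of 539) and ADD1 (48.4% of 1533) were close to an even split. EPB41 had 38.3% of 1136, SLC4A1 30.9% of 947 and ANK1 4.07% of 1007 (3.02 to 5.48). For SPTB 0 of 268 pairs were full-length, which allows up to 1.41%.

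**Figure D3:**
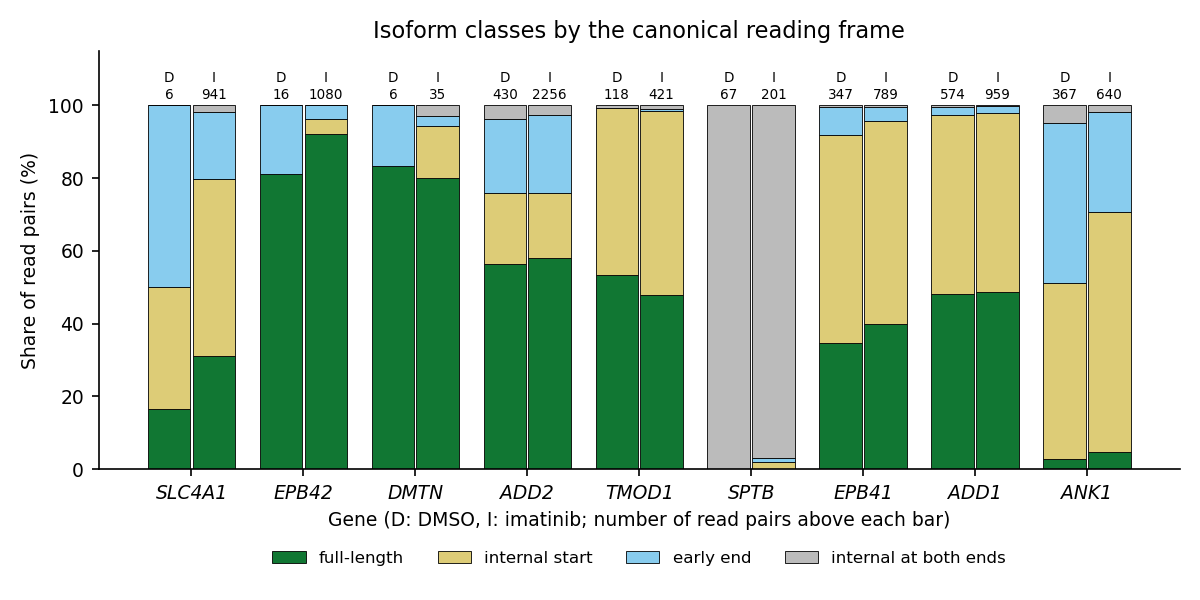
Share of read pairs (%) in 4 isoform classes by the canonical reading frame, for DMSO (D) and imatinib (I), replicates pooled, with the number of pairs above each bar. EPB42 is mostly full-length with imatinib (92.2% of 1080 pairs), ANK1 hardly (4.84% of 640 pairs), and SPTB lies almost wholly in the class internal at both ends.

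For SPTB and ADD2 the classes depended on the reading frame chosen. The main 3′ end of SPTB, at 64766407 with 209 pairs, lay in intron 32 of the canonical transcript, 8 bp from the annotated end of SPTB-202. That isoform ends its reading frame earlier, and the shorter beta spectrin is the form known from red cells. In ADD2, 552 pairs ended in exon 16 around 70663442, a position 17 bases before the last base of the stop codon. Molecules that end at that position lack the canonical stop codon. When any annotated frame at least 80% as long as the canonical one was accepted, a definition added after these values were seen, ADD2 was 74.1% full-length (72.4 to 75.7) and SPTB 0.373% (1 of 268 pairs), with 99.3% of SPTB pairs starting internally. The early ends of ADD2 went from 568 to 130 pairs by the position of their ends alone, and whether these RNAs use another frame was not tested. The other 7 genes changed little or not at all, EPB41 most (38.5%).

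Under the wider definition the full-length share was lower in genes with longer canonical spliced transcripts, which are not the lengths of the molecules sampled. EPB42 with 2.34 kb had the highest share and SPTB with 10.2 kb the lowest, with ADD2 (9.29 kb in the canonical model) apart from the trend at 74.1%. The main end of ADD2 lay 1297 bases past the stop codon, so most of its molecules lacked the greater part of the 3′ UTR of the canonical model. The main end of SPTB, with 69.7% of its pairs before filtering, lay in intron 32. Those molecules lacked the last exons of the 10.2 kb canonical model. Spearman's rho over the 9 genes was -0.73 between full-length share and spliced length and 0.68 for the share of internal starts. The 9 points share the same 4 libraries, and the part of cDNA length in these shares was not tested.

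**Figure D4:**
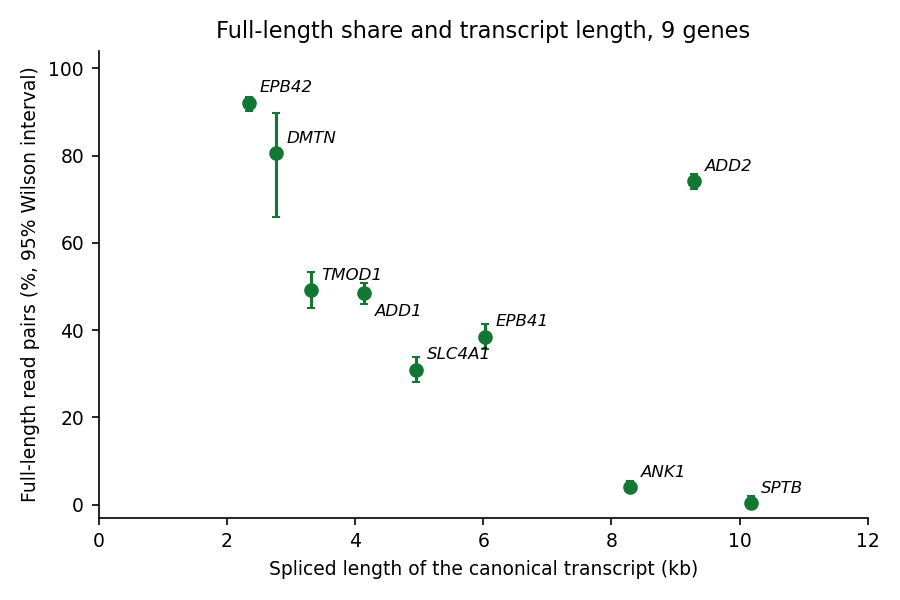
Full-length read pairs (%, 95% Wilson interval, all 4 libraries pooled, any annotated long reading frame) against the spliced length of the canonical transcript (kb) for the 9 genes. The share falls from 92.1% for EPB42 (2.34 kb) to 4.07% for ANK1 (8.29 kb) and 0.373% for SPTB (10.2 kb). ADD2 (9.29 kb) stays at 74.1%, or at 57.7% by the canonical frame.

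Internal starts lay either within the reading frame or past the stop codon, in the 3′ UTR. This split was made after the starts had been seen. Starts past the stop codon made up 83.7% of the internal-start pairs of SLC4A1 (385 of 460), 79.2% of EPB41 (506 of 639), 66.8% of ANK1 (400 of 599), 57.7% of TMOD1, 41.3% of ADD2 and 29.1% of ADD1. EPB42, with a short 3′ UTR, had 0 of 44. In SLC4A1 these starts gathered at 44249267 (60 pairs) and 44249433 (53 pairs) in exon 20, and in EPB41 at 29119360 (72 pairs) in exon 21. In SPTB the starts were scattered instead, with 221 distinct positions among 268 pairs, and the most used of them lay in coding exons 28 and 25.

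No class of the 9 genes passed a test of changed usage with imatinib. Of 21 classes of 7 of the genes that could be tested by edgeR's diffSpliceDGE, each class against the rest of its gene, 0 were called and 0 had an unadjusted p under 0.05, where 0.0951% of all 12614 classes tested were called. With so few calls in any gene, this count does not set the 9 genes apart. SPTB and DMTN had no testable set. ADD1 was the most even, with 50.4% and 46.3% full-length with DMSO and 49.0% and 47.8% with imatinib. EPB41 had 29.1% and 37.1% against 39.7% and 40.7%, and TMOD1 48.1% and 57.8% against 47.7% and 48.6%. In ANK1 the class shares of the 2 conditions did not overlap, nor did the full-length shares of EPB41. The full-length, internal-start and early-end shares of EPB42 did not overlap either, with 8 pairs in each DMSO library. Some classes of SPTB and DMTN were also apart. How common this is over all genes is not given, so it does not set ANK1 apart. Internal starts were 58.6% and 41.4% of the ANK1 pairs with DMSO and 65.0% and 68.1% with imatinib. Early ends were 34.9% and 50.2% against 29.4% and 22.7%, and full-length pairs were 3 and 7 against 19 and 12. Early ends include pairs wholly upstream of the canonical transcript, such as those ending at 41828166 (15 and 36 against 44 and 4 before filtering). Pooled over replicates, early ends of ANK1 were 43.9% with DMSO and 27.7% with imatinib. They were 28.6% and 18.8% when starts not near an annotated start counted as internal. Whether the pairs shared with the lncRNA are among the upstream pairs was not tested. The smallest unadjusted p of the 21 classes was 0.0908.

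SLC4A1 was the gene whose isoforms differed most between the imatinib replicates. Full-length pairs were 32.6% of replicate 1 (276 of 846) but 16.8% of replicate 2 (16 of 95). Over all ends of the rule, 127 pairs of replicate 1 (13.4%) and 61 of replicate 2 (56.0%) ended at 44257157 in intron 13, while 734 (77.4%) and 34 (31.2%) ended at the last exon, at 44248391. With DMSO the counts at these sites were 2 and 1 against 0 and 3, too few to place. The intronic end lay 3247 bp from the nearest annotated end and had 3 A among the next 10 bases, and molecules that end there stop before the last exons of the reading frame. The last 30 bases up to the annotated end are shown (hg38, minus strand, poly(A) hexamer in capitals), since complete SLC4A1 molecules end there.
SLC4A1 exon 20, chr17:44248391-44248420: aggttttgccAATAAAcgtatctgtgttgg

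Poly(A) sites of the other genes were mostly those of the annotation. ADD1 used a single site for 95.8% of its pairs (2930060, exon 16), EPB42 for 90.8% (43197230, exon 13), EPB41 for 82.3% (29120039, exon 21), DMTN for 70.4% (22082524, exon 16) and TMOD1 for 70.0% (97601253, exon 10). These 5 sites lay within 2 bp of an annotated end. ADD2 spread its ends over exon 16, with 44.5% at 70662128, 19.8% at 70663442 and 16.8% at 70661203, and the last of these lay 927 bp from an annotated end.

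ANK1 also divided its ends, 25.3% at 41653226, 24.6% at 41654702 and 19.1% at 41655320, all in exon 43. Of these only the first had few A downstream (2 of 10 bases, against 7 and 10), so that the other 2 mostly fell under the A-rich filter. Yet 41655320, where all 434 pairs fell under it, lay 4 bp from the annotated end of ANK1-203. A further 123 pairs ended at 41788084 in intron 1, and 99 at 41828166, upstream of the canonical transcript. In EPB41, 132 of the 136 pairs at 28993462 in coding exon 3 likewise had A-rich sequence behind them. So had 290 of the 1384 pairs in the group of its main end, 29120039, which lay 1 bp from an annotated end. In EPB42, 53 pairs that ended 923 bp past the annotated end had 10 of 10 A. All came from the imatinib libraries, but EPB42 had only 8 and 8 pairs with DMSO, too few to compare this end.

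Either of the hexamers AATAAA and ATTAAA lay in the 40 bases before the end in 69.0% of all 30461 poly(A) clusters. The sites below are given as the last 30 bases before and up to the end, with the hexamer in capitals, to set the main ends of TMOD1, ADD1 and EPB41, which hold one, beside those of EPB42, SPTB and ADD2, which hold neither.
EPB41, chr1:29120010-29120039, plus strand: gcatttttttcAATAAAcaacaacaaaaag
ADD1, chr4:2930031-2930060, plus strand: tgttttactcacaAATAAAattctttcagc
TMOD1, chr9:97601224-97601253, plus strand: caatataatATTAAAtctgttggtctatgc
EPB42, chr15:43197230-43197259, minus strand: caatctaaaccaaacatgtgctaggaagag
SPTB, chr14:64766407-64766436, minus strand: gtataaatatatcaccatttacatgagggg
ADD2 main end, chr2:70662128-70662157, minus strand: aaaaattagacaatccattctcttgaaagc
ADD2 end in the reading frame, chr2:70663442-70663471, minus strand: cctccttcctgaaaaagagcaaaaagaagg

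The window of the ADD2 end inside the reading frame shows the runs of A that flank it in the coding sequence, and its most used position had 5 A among the next 10 bases, under the limit of 7. This end took 11.9% and 23.4% of the DMSO pairs and 22.7% and 11.5% of the imatinib pairs, while the main end took 51.0% and 39.4% against 43.8% and 46.6%. Over the genes, 18 poly(A) clusters of 5 genes were tested for a change of usage with diffSpliceDGE, 0 were called and 0 had an unadjusted p under 0.05, against 0.111% called of 9876 clusters in all.

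Starts were tested in the same way. Of 15 TSS clusters of 6 of the genes, 0 were called and 0 had an unadjusted p under 0.05, against 3.29% called of 9775 clusters tested. The ADD2 clusters tested were those at 70717748 and 70677803. Its first-exon start, described below, formed no cluster, so this test could not show a change there. EPB42 started at 43221018, its annotated start, in 63.4% of pairs, and a broad second group around 43220929 held 22.7%. SLC4A1 started at 44268135 in 45.4% of pairs, ADD1 at 2843901 in 35.2%, TMOD1 at 97501666 in 40.4%, EPB41 around 28887103 in 37.3% and ANK1 at 41797622 in 20.2%. These most used starts lay within 29 bp of an annotated start. DMTN, with 41 pairs, had 30 distinct starts, and the most used were 22056814 and 22057864 with 5 pairs each.

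ADD2 was transcribed from more than 1 annotated promoter. Most of its pairs, 1999 of 2686, started in the annotated promoter region at 70717778 in intron 1 of the canonical transcript, and 114 started in the region of the canonical first exon, between 70767469 and 70768225. Both lie before the start codon, which is in exon 3. The intron 1 region rose from 114 and 141 pairs (29.9 and 24.6 CPM) with DMSO to 1353 and 391 (271 and 158 CPM) with imatinib. The upstream region had 33 and 40 pairs (8.65 and 6.98 CPM) with DMSO and 29 and 12 (5.80 and 4.84 CPM) with imatinib. Its share of ADD2 pairs went from 16.2% and 17.7% to 1.66% and 2.34%, with no overlap between the groups. Starts outside any annotated region went from 14.7 and 7.67 CPM to 71.2 and 43.1 CPM, so that of these groups the upstream region alone was lower with imatinib.

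Grouping starts by annotated promoter regions in place of TSS clusters was chosen after these starts had been seen. By diffSpliceDGE over 11885 regions, of which 0.404% were called, the upstream region of ADD2 fell against the rest of the gene by 2.16 on the log2 scale (adjusted p = 0.0114), and it was the only one called of 20 regions of 7 of the genes. The call was lost without DMSO replicate 1 (adjusted p = 0.314), DMSO replicate 2 (0.509) or imatinib replicate 1 (0.0672), and the log2 values without a library ranged from -2.31 to -1.97.

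**Figure D5:**
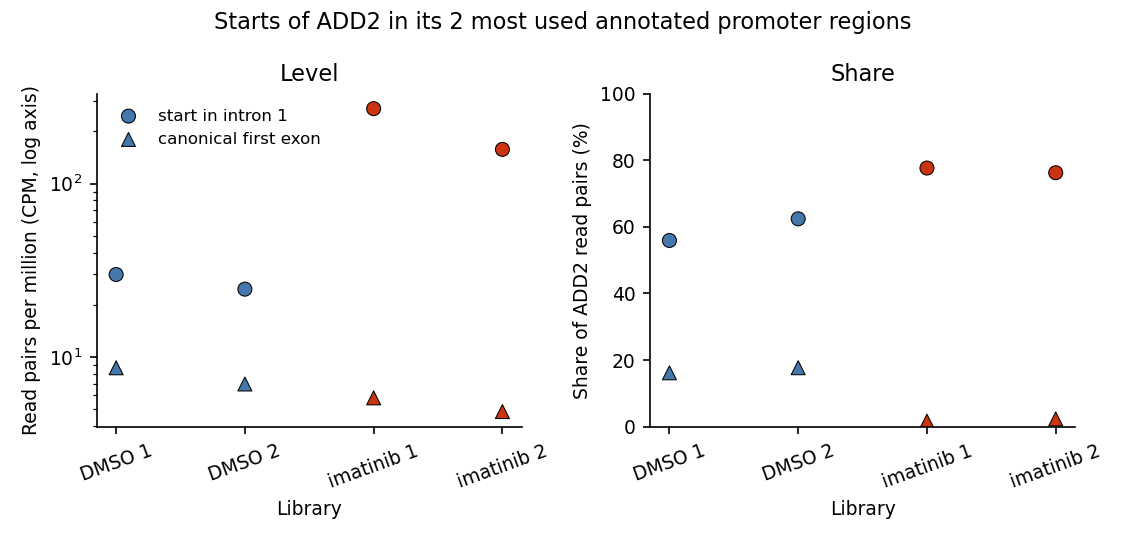
ADD2 read pairs that start in the annotated promoter region of intron 1 (circles) or of the canonical first exon (triangles) in each library, as CPM on a log axis and as a share (%) of all ADD2 pairs that passed the filters; blue is DMSO and red imatinib. The intron 1 starts go from 24.6 to 29.9 CPM with DMSO to 158 to 271 CPM with imatinib, while the first exon goes from 6.98 to 8.65 CPM to 4.84 to 5.80 CPM.

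The sequence around the starts differed as well. For the main starts of EPB42, EPB41, ADD1 and TMOD1 and both starts of ADD2, the 250 bases before and 50 bases from the start were searched for AGATAA (bound by GATA factors) and CCACCC (bound by KLF factors) on both strands and for TATAAA on the sense strand. Over all 15953 TSS clusters the shares that held them were 8.12%, 35.9% and 4.20%. AGATAA was found at EPB42 (2 copies) and the intron 1 start of ADD2 (1 copy) and not at the starts of EPB41, ADD1, TMOD1 or the first exon of ADD2. CCACCC was found at EPB42, TMOD1 and the intron 1 start of ADD2 (1 copy each), and TATAAA at none of these starts. G and C made up 42.0% of the window at the intron 1 start of ADD2 and 77.0% at its upstream start. A match does not show that a factor binds there. The EPB42 start and both ADD2 starts are printed 5′ to 3′ with the matches on either strand in capitals, and base 251 is the most used start.
ADD2 intron 1 start, chr2:70717699-70717998, minus strand: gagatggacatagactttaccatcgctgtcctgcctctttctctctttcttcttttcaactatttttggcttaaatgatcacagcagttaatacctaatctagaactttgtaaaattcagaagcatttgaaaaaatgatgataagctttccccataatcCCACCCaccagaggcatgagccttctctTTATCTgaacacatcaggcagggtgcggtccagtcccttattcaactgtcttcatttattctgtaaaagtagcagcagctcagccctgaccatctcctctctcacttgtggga
ADD2 first exon start, chr2:70768149-70768448, minus strand: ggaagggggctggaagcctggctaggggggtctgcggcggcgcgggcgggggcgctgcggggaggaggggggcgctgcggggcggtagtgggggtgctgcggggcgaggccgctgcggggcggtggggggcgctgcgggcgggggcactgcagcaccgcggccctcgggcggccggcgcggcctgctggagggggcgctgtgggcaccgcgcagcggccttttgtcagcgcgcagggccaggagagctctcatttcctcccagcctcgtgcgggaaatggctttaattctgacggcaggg
EPB42 start, chr15:43220969-43221268, minus strand: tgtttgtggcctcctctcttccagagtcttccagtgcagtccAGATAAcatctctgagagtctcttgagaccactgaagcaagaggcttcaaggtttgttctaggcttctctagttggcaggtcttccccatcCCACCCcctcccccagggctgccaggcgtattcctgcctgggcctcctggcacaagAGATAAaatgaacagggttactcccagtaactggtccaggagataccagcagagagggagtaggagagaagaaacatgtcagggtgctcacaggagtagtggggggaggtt

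Linking start and end clusters gave 40 transcript isoforms (TIFs, pairs of a TSS and a poly(A) cluster with at least 4 read pairs) in 7 of the genes, and none for SPTB and DMTN. Of the 19 that passed the filter on low counts 12 were called higher after imatinib, where 6.38% of 16020 TIFs were called higher. In 9 of these 12 no DMSO library reached the count that the filter asks for, so they entered through the imatinib libraries and a difference was built in. The other 3 were TIFs of ADD2, and the share called is no result about the genes. Without imatinib replicate 1, 7 were called, and without imatinib replicate 2, 18. ADD2 had 13 TIFs and 7 of the 12 called, all 7 from the intron 1 start. Its main TIF, 70717748 to 70662128, had 60 and 51 pairs with DMSO and 579 and 180 with imatinib (log2 fold change 3.15, SE 0.42, adjusted p = 0.00354). The TIF that ends in the reading frame (70663442) had 11 and 31 pairs against 290 and 38 (3.33, SE 0.66), the one that ends at 70661203 had 15 and 19 against 169 and 65 (3.24, SE 0.42), and these 3 also passed the filter with DMSO. The 4 smaller ones did not, and they included short molecules that ended in intron 4 (70703586, 2 and 8 against 30 and 24 pairs) and intron 13 (70675090, 1 and 5 against 17 and 7 pairs).

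EPB42 had 6 TIFs. Its main one, 43221018 to 43197230, spans 23.8 kb and had 3 and 6 pairs with DMSO and 454 and 112 with imatinib. A TIF from 43220929 to the same end had 1 and 0 against 36 and 7 pairs, and the third, from 43220914, had 0 and 0 against 24 and 4 and was not tested. SLC4A1 had 2 TIFs. The complete one, 44268135 to 44248391, had 0 and 0 pairs with DMSO and 87 and 8 with imatinib, and the one that ends in intron 13 had 2 and 0 against 48 and 29. All 4 called TIFs of EPB42 and SLC4A1 entered the test through the imatinib libraries alone, and no fold or p is given for them.

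EPB41 had 1 called TIF, 28887128 to 29120039 over 233 kb, with 6 and 11 pairs against 48 and 14, which also entered through the imatinib libraries alone. Its largest TIF, from 28887103 to the same end, had 12 and 38 against 99 and 21 pairs and did not pass (adjusted p = 0.0769), and the third, from 28887148, had 3 and 6 against 22 and 5 and was not tested. The main TIF of ADD1, 2843901 to 2930060, had 42 and 51 pairs against 121 and 50 (log2 fold change 1.35, SE 0.38, adjusted p = 0.0501), and the next, from 2843859, 19 and 24 against 29 and 14 (adjusted p = 0.495), while the smallest, from 2843844, had 1 and 3 against 8 and 5 and was not tested.

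The TIFs of TMOD1 were too small to test. The largest, 97501666 to 97601253, had 5 and 9 pairs with DMSO and 24 and 4 with imatinib, followed by 97501701 to the same end (1 and 2 against 11 and 5) and 97501666 to 97599884 (0 and 2 against 4 and 0). In ANK1 the 3 largest TIFs were all short of the full gene. The first, 41828872 to 41828166, spans 0.706 kb upstream of the canonical transcript, with 5 and 13 pairs against 21 and 0 (adjusted p = 0.697). The second, 41654976 to 41653226, lies within the 3′ UTR, with 5 and 8 against 14 and 6 (adjusted p = 0.225). The third, 41797633 to 41788084, joins the main start with the end in intron 1, with 4 and 9 against 14 and 6 (adjusted p = 0.232). Complete TIFs of ANK1 spanned 144 kb and had 5 pairs each.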

How the data were processed

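TIF-Seq2 read pairs of K562 cells were used, 2 libraries with DMSO and 2 with 1 μM imatinib for 24 h, grouped by the labels. The authors trimmed the reads with cutadapt 1.16, aligned both ends to hg38 with STAR 2.5.3a, kept unique pairs and collapsed PCR copies that share a UMI. What they deposited are counts of the remaining read pairs for each combination of ends, neither filtered nor normalized. The targeted long-read models were not used here.

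Pairs were summed per Gencode v44 gene by the rule of the report. A pair in the windows of 2 genes counts in both, and CPM (counts per 1000000) are relative to the total of such sums after TMM scaling. Genes, TIFs and usage were tested with edgeR 4.0.16 (quasi-likelihood, filterByExpr, diffSpliceDGE), adjusted by Benjamini-Hochberg over all features tested, and called at an adjusted p under 0.05. The fits were tested on simulated data. SE is the log2 fold change over the square root of F. TSS and poly(A) clusters and TIFs follow the limits of the paper's methods (fewer than 7 A in 10 bases, 300 bp to 2 Mb, at least 1 power-law normalized count in 2 libraries, joined within 10 bp, at least 4 pairs). 3′ and 5′ end groups of a gene join positions with at least 2 pairs within 10 bp and are named by their most used position. Intervals cover counting error only, and imatinib replicate 2, the shallowest library, is the least precise.

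The 9 genes and all lists were chosen with earlier results of these data known. All 9 are named. Of the 8 called genes of the other list with the largest changes, all are named but those not reported here. Per gene, the 3 TIFs with most pairs are named, and the called TIFs but for some smaller ones of ADD2. Alternatives were RLE scaling, DESeq2 1.42.0, no filter, other windows and filters, other class limits, a replicate block and each library left out. Sequences were read from hg38, and none is printed from chromosome 8. A few genes, sequences and the motifs in them are not reported here. Scripts ran in Python 3.11.15 and R 4.3.3.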

Additional observations from a re-analysis of the deposited data

How the results depend on the processing

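Each of the 9 genes kept a positive log2 fold change under every alternative run. The number of the 9 called was 8 as reported, 8 with RLE scaling, DESeq2 or the 200 bp window, 9 with no filter on low counts, with A-rich and short pairs left out or with pairs of 1 gene alone, and 4 to 9 when each library was left out, lowest without DMSO replicate 2. Of the other membrane skeleton genes 12 were called, and 8 to 15 under the alternatives. Called TIFs numbered 12, 22 with no filter on low counts, 10 with DESeq2 and 7 to 18 without a library, lowest without imatinib replicate 1. Isoform classes, poly(A) clusters and TSS clusters gave 0 calls under every alternative run. The first-exon start of ADD2 lay in no TSS cluster, so the TSS runs could not test it. The promoter region of ADD2 was the only call of its test, with 0 to 1 calls without a library. With a library left out, a condition has a single library, which is assumed to vary like the others.

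The replicate numbers are shared by DMSO and imatinib, but nothing says that they mark a shared culture, and the replicate differences of the 2 conditions correlated at -0.236 over genes. With the replicate block 6 of the 9 genes were called (EPB41 and ADD1 were lost, adjusted p = 0.0650 and 0.0799), 9 other membrane skeleton genes, 10 TIFs and 0 promoter regions (ADD2, adjusted p = 0.0574). With the pairing crossed, an alternative added after seeing the data, the counts were 9, 15, 15 and 1.

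Shares moved in few cases. With all pairs of the rule the full-length share was 7.97% for ANK1 and 61.1% for DMTN, and with any annotated long reading frame 74.1% for ADD2. Without imatinib replicate 1 the share for SLC4A1 was 16.8%. The few DMSO pairs of SLC4A1, EPB42 and DMTN limit any statement on their isoforms before treatment.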
